A study of Homo sapiens with 6 samples.

Results

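The genes described here are 35 direct transcriptional targets of p53, named as a list and found by their symbols in the count tables of HCT116 cells with and without CRISPR editing of MUC3A. All 35 had a row among the 15284 genes listed for both guides, and 33 had enough reads to be tested among 12678 tested genes. EDA2R (0 to 3 reads per library) and SPATA18 (0 to 6 reads) were too low. HCT116 is an established human colorectal carcinoma line, and MUC3A encodes a membrane mucin of the intestine. The WT cells are labelled both as wild type and as negative control, so whether they had received a scrambled virus is not settled by the labels. KO1 and KO2 cells are labelled MUC3A knockout and received different guides in the lentiCRISPR v2 vector, with infection at a multiplicity of 10 and puromycin at 2 µg/mL for 72 h per the protocol. Whether a line is a clone or a pool is not stated. Each of the 3 groups has 2 poly(A) RNA libraries, 1 with a name that starts with HCT and 1 with a name that starts with HCT116. The labels explain neither prefix. Nor do they name separate cultures. A p-value here weighs a difference against the spread left between libraries once the name prefix is accounted for. That spread may be technical.

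The p53 protein is a transcription factor that is kept low in unstressed cells by MDM2, a ubiquitin ligase that is itself a p53 target. DNA damage and other stresses stabilise p53, which then binds paired decamers in promoters and introns. Its targets halt the cell cycle, repair DNA, promote cell death and feed back on p53 itself. CDKN1A, which encodes the cyclin-dependent kinase inhibitor p21, is the classical arrest target.

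The RefSeq promoter table (GRCh38.p14, 250 bases before to 50 after each annotated start) held windows for 27 of the 35 members. GADD45A, TNFRSF10A, TNFRSF10B, TNFRSF10C, TP53INP1, PHLDA3, RRM2B and ASCC3 had none. Windows were searched for the p53 consensus decamer, a pattern of 10 bases that reads the same on both strands. They were also searched for the paired site, 2 decamers at most 1 base apart with at most 2 mismatches in all and none at the core C and G. The perfect decamer was in 6 of the members' 40 windows (15%), from 6 genes, and in 6.63% of all 35116 windows. The paired site was in 5 of the 40 windows (12.5%), from 4 genes, and in 0.533% of all windows. The members with a match are shown because they put the listed genes beside the sequence p53 is known to bind. Each run is 30 bases read 5′ to 3′ on the gene's own strand, with the match in capitals.
DDB2, paired site with 0 mismatches, chr11:47214975-47215004, plus strand: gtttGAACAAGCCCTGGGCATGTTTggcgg
FAS, paired site with 2 mismatches, chr10:88991304-88991333, plus strand: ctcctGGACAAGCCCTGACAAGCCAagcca
MDM2, paired site with 2 mismatches, chr12:68808918-68808947, plus strand: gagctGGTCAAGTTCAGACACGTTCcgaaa
AEN, paired site with 2 mismatches, chr15:88621301-88621330, plus strand: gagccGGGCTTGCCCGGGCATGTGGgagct
PLK2, single decamer, chr5:58460199-58460228, minus strand: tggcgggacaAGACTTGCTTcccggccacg
RPS27L, single decamer, chr15:63157517-63157546, minus strand: ggcctagagcAGACAAGCCCgccccgccgc
FDXR, single decamer, chr17:74872986-74873015, minus strand: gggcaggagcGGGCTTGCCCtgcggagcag
A match describes letters only. The matches of PLK2, FAS and MDM2 began 132, 122 and 94 bases before the annotated start, and that of DDB2 began 6 bases after it. The 7 members with a match had a median log2 fold change of 0.52 in KO1 against WT (range 0.14 to 1.21) and 0.06 in KO2 against WT (range −0.69 to 0.74). The 18 tested members with a window and no match had medians of 0.23 (range −0.80 to 0.91) and 0.12 (range −0.34 to 0.63), so the ranges overlap. CDKN1A is among them, and sites outside these windows were not searched. The 8 members without a window had medians of 0.33 (range 0.23 to 0.60) and −0.12 (range −0.53 to 0.62). In the 101 windows of other genes known as p53 targets the perfect decamer was in 10.9% and the paired site in 2.97%.

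Totals per library ran from 13638724 to 17830282 counts. MUC3A, the targeted gene, stood at 52.7 and 25.1 CPM (read counts scaled to a common library total with TMM) in WT, 52.9 and 28.6 CPM in KO1 and 30.04 and 24.6 CPM in KO2, and passed in neither comparison. Its transcript level does not check an edit of the coding sequence. The summed level of the 9 epithelial markers with a row was 6829 and 8853 CPM in WT, 9286 and 15570 CPM in KO1 and 5605 and 9706 CPM in KO2, of which VIL1 was at or near 0. Of 8 tested, 0 rose and 0 fell in KO1 by edgeR (unadjusted 5 higher and 0 lower, against 5.38% and 3.47% of all genes). DESeq2 called KRT8, KRT18 and KRT19 higher in KO1 (1.06% of all genes). By edgeR 5 of the 8 were lower in KO2 than in KO1 (5.39% of all genes). EPCAM stood at 219 to 289 CPM in all 6 libraries. The 7 leukocyte markers with a row summed to 9.57 and 10.5 CPM in WT, 22.1 and 21.02 CPM in KO1 and 6.65 and 14.2 CPM in KO2. CD68 made up most of this, while PTPRC and CD14 were at or near 0. DESeq2 called CD68 higher in KO1, and lower in KO2 than in KO1. By edgeR 1 of 3 tested leukocyte markers was lower in KO2 than in KO1. The 4 fibroblast markers with a row summed to 35.4 to 67.5 CPM, nearly all of it COL1A1. The 7 markers of HEK293T, the line that packaged the virus, summed to 25.3 to 50.4 CPM. Of 3 tested HEK293T markers 1 was higher in KO2 than in KO1 by edgeR (4.24% of all genes) and 0 by DESeq2. Mitochondrial transcripts took 4.84% to 5.34% of counts in WT, 4.20% to 5.94% in KO1 and 6.95% to 8.90% in KO2. The part of these shifts in the members' values was not tested, and in bulk RNA a change in the share of cells cannot be told apart from a change in RNA per cell. By GENCODE v29 names, exons of 14 members overlap exons of another gene, and for TIGAR, TNFRSF10C and XPC 1 such gene covers at least 20% of the exon bases, so their reads are uncertain.

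Levels can be compared between genes only per length, so baseline levels were taken as CPM per kilobase of GENCODE v29 exon. This length is the union of all annotated exons of a gene, 9127 bases for RPS27L and 13284 for MDM2. It can exceed the transcript in use and then lowers the value, so the order is approximate. Members were ordered by the mean of the 2 WT libraries. GDF15, a secreted stress cytokine, was the most abundant at 146.4 CPM per kilobase in the HCT library and 145.9 in the HCT116 library. CDKN1A followed at 104.2 and 101.2 CPM per kilobase, and PERP, a desmosome protein linked to p53-driven death, at 90.7 and 52.4 CPM per kilobase. In the HCT116 library of WT alone, FDXR (59.9 CPM per kilobase) stood above PERP. Neighbours in this order, such as PLK2 (35.8 and 27.9) and TNFRSF10B (33.9 and 29.6), overlapped between the libraries. The lowest tested members by the mean were ACER2, an alkaline ceramidase (2.01 and 0.351 CPM per kilobase), and TIGAR, a regulator of glycolysis (0.502 and 0.215 CPM per kilobase). In the HCT library of WT alone, TP53I3 (1.24) and TNFRSF10C (1.81 CPM per kilobase) stood below ACER2.

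**Figure D1:**
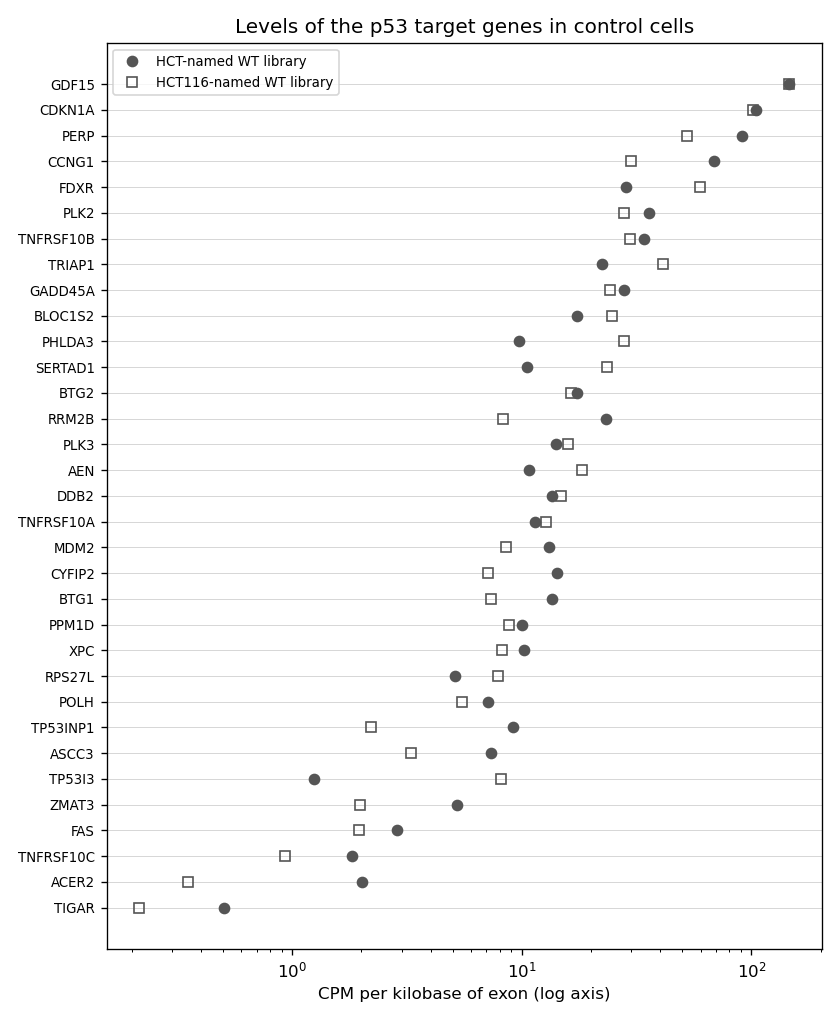
CPM per kilobase of exon of the 33 tested p53 target genes (log axis) in the 2 WT libraries, ordered by their mean; filled circles are the HCT-named and open squares the HCT116-named library. GDF15 and CDKN1A stand at the top and TIGAR at the bottom, and several members such as TP53I3 and ACER2 lie far apart between the 2 libraries.

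The HCT-named and HCT116-named libraries differed in level for many members. Over all groups the prefix term passed an adjusted p of 0.05 for 20 members, 11 higher and 9 lower in the HCT116-named libraries (edgeR's quasi-likelihood test with Benjamini-Hochberg adjustment, used for every adjusted p here unless another tool is named). The prefix term passed for 63.9% of all tested genes, so the members' 20 of 33 is near that background. TP53I3, an oxidoreductase of the death branch, stood at 2.86, 2.75 and 4.55 CPM in the HCT libraries of WT, KO1 and KO2. Its HCT116 libraries stood at 18.7, 23.0 and 17.9 CPM, a log2 difference of 2.55 ± 0.22 (SE). PHLDA3, an inhibitor of Akt, stood at 30.5 to 33.6 CPM in HCT libraries and 85.3 to 111 CPM in HCT116 libraries, a log2 difference of 1.55 ± 0.11. Opposite to these, TP53INP1, a stress-induced nuclear protein, was higher in HCT libraries (52.1 to 54.8 CPM against 12.5 to 31.9 CPM). Groups were compared within the prefix, which enters the model as a block. Without this block 0 members passed in any comparison between groups, and 0 genes of the whole table (edgeR; at an unadjusted p under 0.05 the block-free fit had 2 members in KO1, 0 in KO2 and 1 between the guides).

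KO1 cells, which received 1 of the guides, were compared with WT. Of 33 members, 29 had a ratio above 0 in both the HCT and the HCT116 libraries, and 1 (TIGAR) had a ratio below 0 in both. Among all tested genes 31.1% were above 0 in both and 30.1% below 0 in both. The median fitted log2 fold change was 0.32 over the members and 0.00 over all genes, and 32 of 33 members were positive. Within the sets the members' median ratio was 0.18 in HCT and 0.43 in HCT116 libraries. Because the list was chosen with results of these libraries known, its count is not independent evidence of a direction. At the level of single genes 2 members rose and 0 fell, against 0.678% of all tested genes called higher and 0.347% called lower (1.03% in either direction). Both KO1 libraries were above both WT libraries for 13 members and below them for 0, against 6.86% and 5.71% of all genes. At an unadjusted p under 0.05, 14 members were higher and 0 lower, against 5.38% and 3.47% of all genes. DESeq2 called 3 higher and 0 lower, against 1.06% and 0.552% of all tested genes.

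Arrest and growth-control targets held both called members. PLK2, a polo-like kinase that acts at centrioles and in stress checkpoints, had 2625 and 1689 reads in WT (HCT and HCT116 libraries) and 4708 and 5077 reads in KO1. In CPM these were 171 and 133 against 315 and 392.4, so both KO1 libraries stood above both WT libraries. PLK2 rose 2.32-fold (log2 fold change 1.21 ± 0.16, adjusted p = 0.00334, edgeR; errors are SE with 2 libraries in each group). It passed also when any 1 of the 6 libraries was left out, with log2 fold changes of 0.92 to 1.53. CDKN1A had 4883 and 3925 reads in WT and 7723 and 8894 reads in KO1, or 318 and 309 CPM against 517 and 687 CPM. The groups did not overlap, and CDKN1A rose 1.89-fold (log2 fold change 0.91 ± 0.17, adjusted p = 0.0269, edgeR). Its call ended without the HCT116 library of WT (edgeR adjusted p = 0.315), the HCT library of KO1 (0.138) or the HCT116 library of KO1 (0.0790).

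GDF15 stood at 306 and 304 CPM in WT and 449 and 601 CPM in KO1, a log2 fold change of 0.74 ± 0.21 that missed the threshold in edgeR (adjusted p = 0.177) and passed in DESeq2 (adjusted p = 0.0334). PLK3, another polo-like kinase, stood at 49.1 and 55.3 CPM in WT and 73.5 and 69.9 CPM in KO1. Both KO1 libraries were above both WT libraries, and the log2 fold change was 0.47 ± 0.20. BTG2, an antiproliferative partner of the CCR4-NOT complex, stood at 47.8 and 45.1 CPM against 50.8 and 74.3 CPM (log2 fold change 0.40 ± 0.16). GADD45A, a stress sensor of the growth arrest family, and CCNG1, which encodes cyclin G1, had log2 fold changes of 0.29 and 0.30. BTG1 (0.12) and SERTAD1 (0.06), a CDK4-binding protein, were the smallest of these 9 genes. All 9 had positive fitted values. Both KO1 libraries were above both WT libraries for 6 and below them for 0, against 6.86% and 5.71% of all genes. Unadjusted in edgeR (p under 0.05), 5 were higher and 0 lower, against 5.38% and 3.47% of all genes.

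Among death targets 0 of 10 tested members passed in either direction by edgeR or by DESeq2. At an unadjusted p under 0.05 in edgeR 2 were higher and 0 lower, against 5.38% and 3.47% of all genes. All 10 fitted values were positive, with a median log2 fold change of 0.26. FAS, a death receptor of the cell surface, stood at 12.2 and 8.34 CPM in WT and 12.7 and 17.6 CPM in KO1. The log2 ratio was 0.06 in the HCT pair and 1.07 in the HCT116 pair. TP53INP1 showed the same split, with ratios of 0.07 in HCT and 1.10 in HCT116 libraries, and so did the decoy receptor gene TNFRSF10C, with 0.14 and 1.13 from 22 to 56 reads per library. The TRAIL receptor genes TNFRSF10A (33.8 and 37.7 CPM in WT, 39.2 and 46.5 CPM in KO1) and TNFRSF10B (175 and 152 CPM against 206 and 177 CPM) had even ratios of 0.21 to 0.30. The TNFRSF10 genes are close relatives, so reads could be split between them. PERP (log2 fold change 0.32 ± 0.13), CYFIP2, a partner of the WAVE actin regulator (0.26 ± 0.16), PHLDA3 (0.25 ± 0.13), TP53I3 (0.18 ± 0.27) and the nuclease gene AEN (0.14 ± 0.13) made up the rest.

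Among repair targets 0 of 5 passed in either direction by edgeR or DESeq2. At an unadjusted p under 0.05 in edgeR 4 were higher and 0 lower, against 5.38% and 3.47% of all genes. Their median log2 fold change was 0.49. POLH, the translesion polymerase eta, stood at 25.3 and 19.5 CPM in WT and 34.8 and 34.4 CPM in KO1 (log2 fold change 0.63 ± 0.16, edgeR adjusted p = 0.111). DDB2, a damage sensor of nucleotide excision repair, stood at 66.4 and 72.3 CPM in WT and 96.7 and 107 CPM in KO1. Its ratios of 0.54 and 0.56 were nearly equal in both sets (log2 fold change 0.55 ± 0.16, edgeR adjusted p = 0.182). In both genes the groups did not overlap. RRM2B, the p53-induced subunit of ribonucleotide reductase, stood at 129 CPM in WT and 152 CPM in KO1 in the HCT set and at 45.8 and 80.1 CPM in the HCT116 set, so the groups overlapped (log2 fold change 0.49 ± 0.17, edgeR adjusted p = 0.329). With 1 library left out the RRM2B value ran from 0.18 (without the HCT116 library of WT) to 0.87 (without the HCT library of WT). ASCC3, a helicase used in alkylation repair, stood at 86.4 and 38.5 CPM against 95.3 and 59.4 CPM (log2 fold change 0.37 ± 0.14). XPC, the lesion recognition factor, had ratios of −0.05 and 0.37.

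The feedback genes were MDM2 and PPM1D, a phosphatase that shuts down the damage response. MDM2 stood at 174 and 114 CPM in WT and 192 and 191 CPM in KO1, with both KO1 libraries above both WT libraries (log2 fold change 0.44 ± 0.15, edgeR adjusted p = 0.286). PPM1D was near its WT level (log2 fold change 0.13 ± 0.13). Among the 7 remaining members RPS27L, a ribosomal protein paralogue, stood at 46.6 and 71.5 CPM in WT and 60.4 and 113 CPM in KO1 (log2 fold change 0.52 ± 0.13, edgeR adjusted p = 0.107). RPS27L resembles RPS27, so its reads are uncertain. FDXR, ferredoxin reductase of the mitochondrion, stood at 103 and 215 CPM in WT and 126 and 306 CPM in KO1 (log2 fold change 0.40 ± 0.13, edgeR adjusted p = 0.257). ZMAT3, an RNA-binding protein (0.36 ± 0.18), TRIAP1, a small mitochondrial survival factor (0.21 ± 0.13), ACER2 (0.14 ± 0.38) and BLOC1S2 (0.13 ± 0.14) had smaller log2 fold changes. TIGAR was the 1 negative member, at 31 and 11 reads in WT and 15 and 8 reads in KO1 (−0.80 ± 0.50). Neither the feedback genes nor these 7 gave a call, with 0 higher and 0 lower by edgeR and by DESeq2. At an unadjusted p under 0.05 in edgeR 1 and 2 were higher and 0 lower, against 5.38% and 3.47% of all genes.

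**Figure D2:**
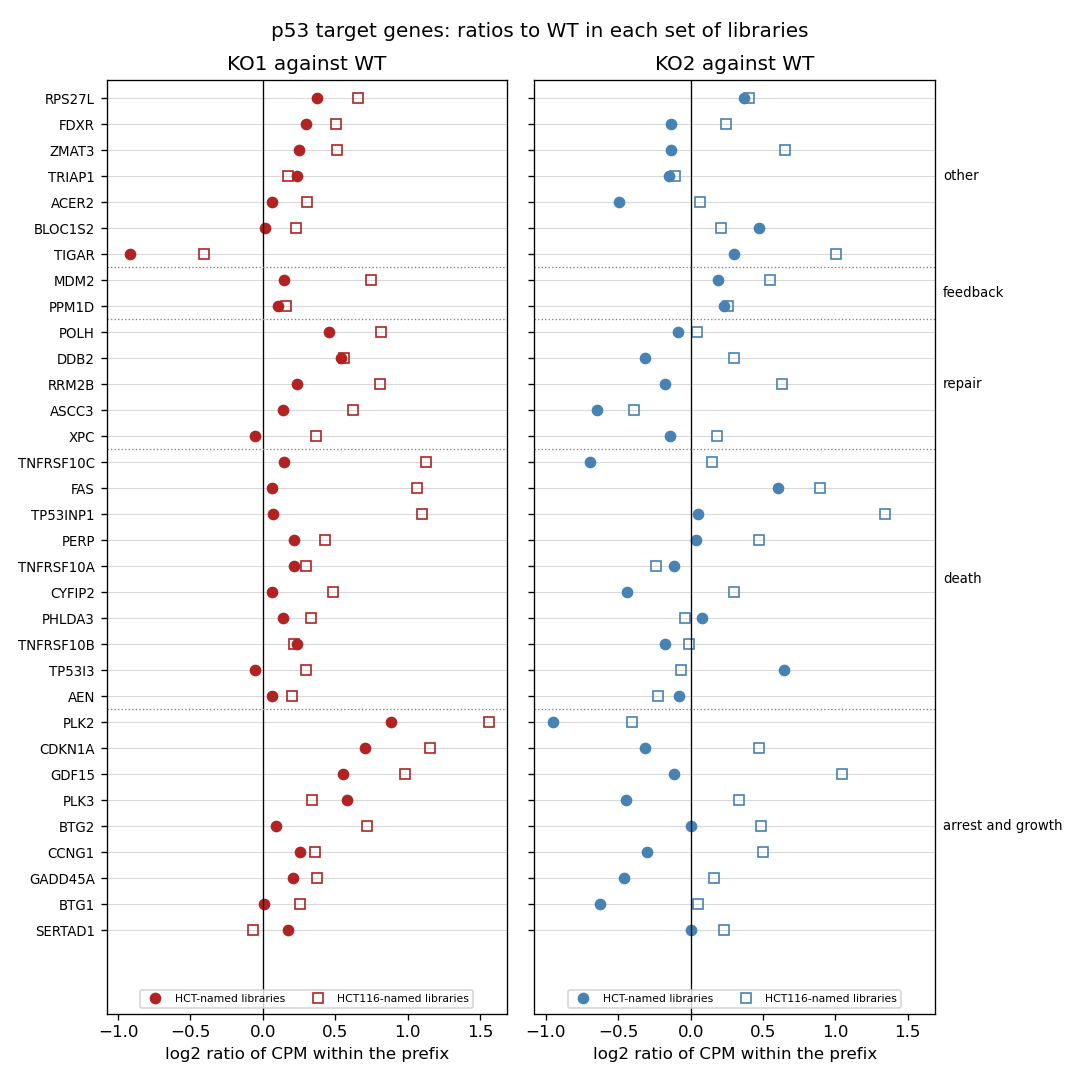
Log2 ratios of CPM to the WT library of the same prefix for 33 p53 target genes, grouped by role; circles are HCT-named and squares HCT116-named libraries, left KO1 and right KO2. In KO1 29 members have both points above 0, while in KO2 10 have both above and 6 both below.

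KO2 cells, which received the other guide, were compared with the same WT libraries, so the values of both comparisons share their control. The members' median log2 fold change in KO2 was 0.06, with 20 of 33 positive, and the 2 sets differed in sign, with medians of −0.13 in HCT and 0.24 in HCT116 libraries. In both sets 10 members were above 0 and 6 below 0, and for 17 the sets pointed opposite ways. Of all 12678 tested genes 30.1% were above and 29.4% below in both, and for 5131 the sets pointed opposite ways. By edgeR 0 members rose and 1 fell, against 2.15% and 2.47% of all tested genes (4.61% in either direction). Both KO2 libraries were above both WT libraries for 3 members and below them for 2, against 11.9% and 8.48% of all genes. At an unadjusted p under 0.05, 6 members were higher and 2 lower, against 9.64% and 9.76% of all genes. DESeq2 called 0 higher and 2 lower (PLK2 and ASCC3), against 1.89% and 2.95% of all genes.

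The arrest gene that fell in KO2 was PLK2, the member that rose most in KO1. It had 1685 and 1450 reads in KO2, or 88.2 and 100 CPM against 171 and 133 CPM in WT, and both KO2 libraries stood below both WT libraries. PLK2 fell 1.62-fold (log2 fold change −0.69 ± 0.16, adjusted p = 0.0316, edgeR). With the HCT library of WT left out it no longer passed (log2 fold change −0.37, edgeR adjusted p = 0.390). CDKN1A stood at 255 and 428 CPM in KO2, below its WT partner in the HCT set (log2 ratio −0.32) and above it in the HCT116 set (0.47), with a fitted log2 fold change of 0.07 ± 0.17. GDF15 split further, at 282 CPM in the HCT and 630 CPM in the HCT116 library of KO2 (ratios −0.11 and 1.05). The other arrest targets with opposite ratios were PLK3 (−0.44 and 0.33), CCNG1 (−0.30 and 0.50), GADD45A (−0.46 and 0.16) and BTG1 (−0.63 and 0.05). BTG2 (0.23 ± 0.16) and SERTAD1 (0.13 ± 0.16) had small positive log2 fold changes.

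Among death targets of KO2, FAS stood at 18.6 and 15.6 CPM against 12.2 and 8.34 CPM in WT, the groups did not overlap, and the log2 fold change was 0.74 ± 0.24 (edgeR adjusted p = 0.116). With 1 library left out the FAS value ran from 0.45 (without the HCT116 library of WT) to 1.09 (without the HCT library of WT). TP53INP1 had ratios of 0.05 and 1.34 and a log2 fold change of 0.62 ± 0.25 (edgeR adjusted p = 0.195). With the HCT116 library of WT left out its value was 0.12, and with the HCT library of WT left out it was 1.28. PERP stood at 0.25 ± 0.13, while TNFRSF10A (−0.18 ± 0.14), AEN (−0.15 ± 0.13) and TNFRSF10B (−0.09 ± 0.12) had negative values. TNFRSF10C (−0.36 ± 0.39), TP53I3 (0.25 ± 0.27), CYFIP2 (−0.08 ± 0.16) and PHLDA3 (0.02 ± 0.13) lay within 1 SE of 0. By edgeR and DESeq2 0 of 10 rose and 0 fell (unadjusted in edgeR: 2 higher, 0 lower). In the repair group ASCC3 stood at 55.3 and 29.4 CPM in KO2 against 86.4 and 38.5 CPM in WT, below its partner in both sets. Its log2 fold change of −0.53 ± 0.15 missed the threshold in edgeR (adjusted p = 0.0680) and passed in DESeq2 (adjusted p = 0.0433). POLH (−0.02 ± 0.16), DDB2 (0.00 ± 0.16) and XPC (0.01 ± 0.15) had fitted values near 0, but the sets pointed opposite ways. The HCT and HCT116 ratios were −0.08 and 0.04 for POLH, −0.31 and 0.30 for DDB2 and −0.14 and 0.18 for XPC. RRM2B also had opposite ratios, of −0.18 and 0.63. By edgeR 0 of 5 repair genes rose and 0 fell (unadjusted: 0 higher, 1 lower; DESeq2: 0 higher, 1 lower). MDM2 stood at 198 and 167 CPM in KO2, above its WT partner in both sets (log2 fold change 0.36 ± 0.15, edgeR adjusted p = 0.202), and PPM1D at 59.5 and 53.2 CPM against 50.7 and 44.5 CPM (0.24 ± 0.13). RPS27L was above WT in both sets too (0.39 ± 0.13, edgeR adjusted p = 0.124), as were BLOC1S2 (0.35 ± 0.14, edgeR adjusted p = 0.206) and TIGAR (0.63 ± 0.44). ZMAT3 (0.24 ± 0.18), FDXR (0.06 ± 0.13), TRIAP1 (−0.13 ± 0.13) and ACER2 (−0.34 ± 0.39) completed the list. The feedback genes and these 7 gave 0 calls in either direction by edgeR and DESeq2 (unadjusted in edgeR: 1 and 2 higher, 0 lower). Among all tested genes 9.64% were higher and 9.76% lower in KO2 at an unadjusted p under 0.05.

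**Figure D3:**
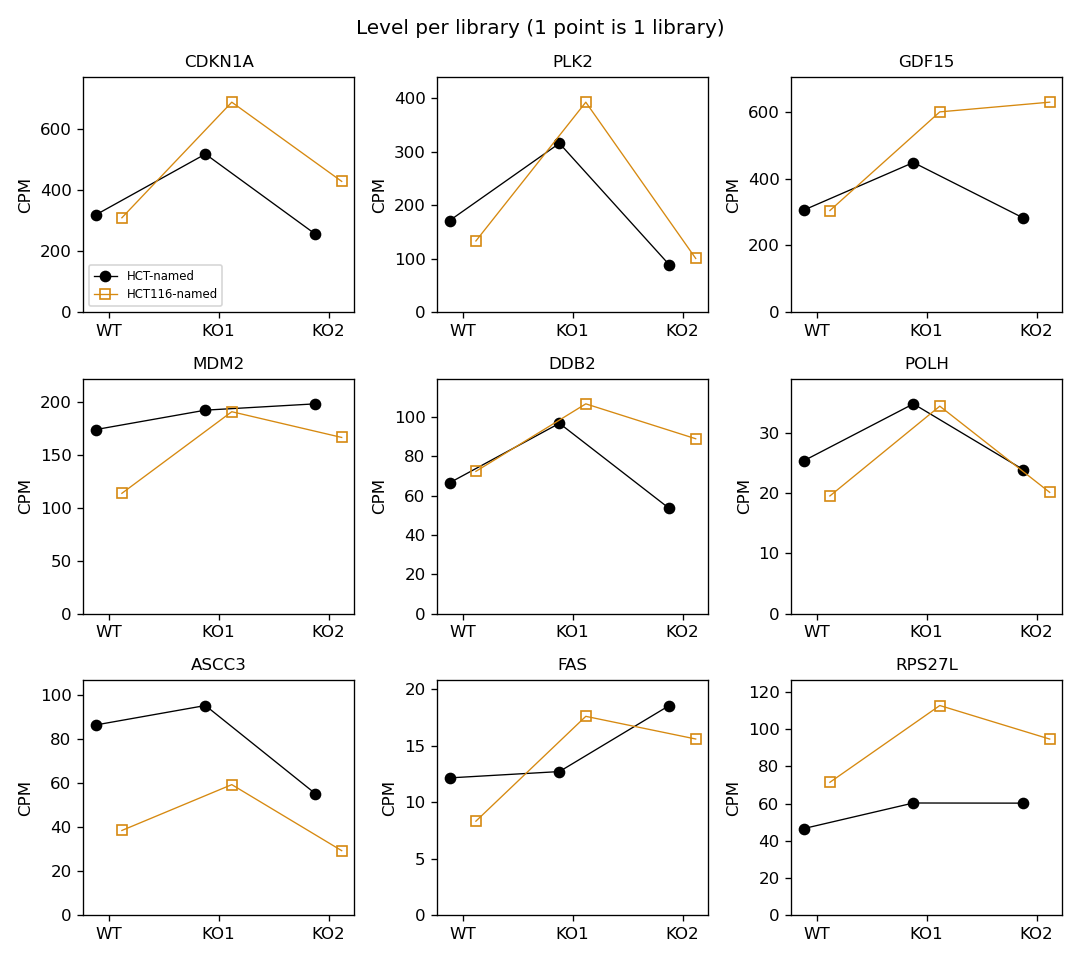
CPM of 9 members in the 6 libraries; lines join libraries of the same prefix and the axes start at 0. PLK2 reaches 315 and 392.4 CPM in KO1 and 88.2 and 100 CPM in KO2, CDKN1A 517 and 687 against 255 and 428 CPM, and GDF15 is high in the HCT116 but not the HCT library of KO2.

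KO2 was tested directly against KO1. Clone, pool and separate cultures are not named, so a difference between the guides cannot be told apart from one between lines or cultures. Of 33 members 4 were lower in KO2 than in KO1 and 0 were higher by edgeR, against 5.39% and 4.24% of all tested genes (9.62% in either direction). Both KO2 libraries were below both KO1 libraries for 12 members and above them for 1, against 11.5% and 13.3% of all genes. At an unadjusted p under 0.05, 14 were lower and 1 higher, against 13.2% and 11.8%. DESeq2 called 5 lower and 0 higher, against 5.32% and 3.57% of all genes. PLK2 was 3.76-fold lower in KO2 (log2 fold change −1.91 ± 0.16, adjusted p = 4.27e-05, edgeR), and with 1 library left out the value ran from −2.10 to −1.70 and kept passing. ASCC3 was 1.87-fold lower (−0.90 ± 0.15, edgeR adjusted p = 0.00276). CDKN1A was 1.79-fold lower (−0.84 ± 0.17, edgeR adjusted p = 0.00961), a call that ended without the HCT library of KO1 (edgeR adjusted p = 0.0624). POLH was 1.58-fold lower (−0.66 ± 0.16, edgeR adjusted p = 0.0248), a call that ended without the HCT library (0.115) or the HCT116 library of KO1 (0.307).

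These 4 comprise 2 arrest and 2 repair genes. Over the whole list the median difference was −0.29 against 0.00 over all genes. In both sets 21 members were lower in KO2 and 2 higher, against 33% and 32.5% of all genes. KO1 was the highest of the 3 groups for 26 members in the HCT set and for 25 in the HCT116 set, and for 20 members in both. Among all tested genes KO1 was highest for 34.3% in the HCT set, 31.5% in the HCT116 set and 17.6% in both. FAS (0.17 ± 0.23), MDM2 (−0.08 ± 0.14), PPM1D (0.11 ± 0.13) and RPS27L (−0.13 ± 0.13) had small differences between KO2 and KO1, within about 1 SE of 0. TIGAR, with 48 and 27 reads in KO2 against 15 and 8 in KO1, did not pass (log2 fold change 1.44 ± 0.47, edgeR adjusted p = 0.0831).

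**Figure D4:**
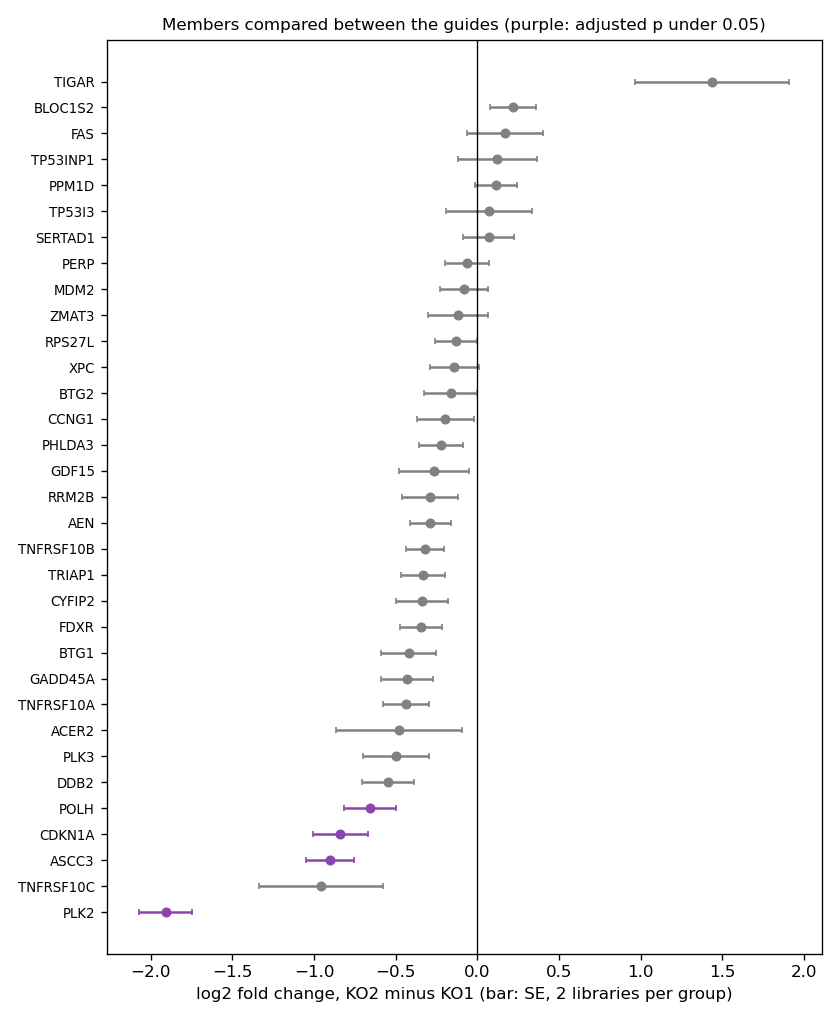
Fitted log2 fold change of KO2 minus KO1 for 33 members with SE bars (2 libraries per group); purple marks an adjusted p under 0.05 in edgeR. The 4 purple points (PLK2, ASCC3, CDKN1A, POLH) lie below 0, and TIGAR lies highest at 1.44.

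Genes that act on p53 were looked at beside its targets. MDM4, a partner of MDM2 that inhibits p53, had log2 fold changes of 0.05 ± 0.13 in KO1 and −0.21 ± 0.13 in KO2. Of 27 tested regulators 0 rose and 0 fell in KO1 by edgeR and by DESeq2 (unadjusted: 0 higher, 0 lower), with a median of 0.00. Among all tested genes 0.678% rose and 0.347% fell in KO1 by edgeR. In KO2 0 regulators rose and 1 fell by edgeR, against 2.15% and 2.47% of all tested genes. Unadjusted, 1 was higher and 1 lower in KO2, against 9.64% and 9.76%. The gene that fell was PRKDC, the catalytic subunit of DNA-dependent protein kinase, which acts in the joining of broken DNA ends. It stood at 528 and 323 CPM in WT, 536 and 382 CPM in KO1 and 254 and 173 CPM in KO2, and fell 1.97-fold in KO2 (log2 fold change −0.98 ± 0.12, adjusted p = 0.00132, edgeR).

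A further 69 tested genes known as p53 targets had a median log2 fold change of 0.21 in KO1, with 54 positive, 1 called higher and 0 lower by edgeR (15 and 1 unadjusted, 4 and 0 by DESeq2). Among all tested genes the shares higher and lower were 0.678% and 0.347% by edgeR, 5.38% and 3.47% unadjusted, and 1.06% and 0.552% by DESeq2. The called gene was SESN1, a stress-induced inhibitor of mTORC1, at 22.3 and 12.5 CPM in WT and 34.9 and 27.1 CPM in KO1 (log2 fold change 0.87 ± 0.17, adjusted p = 0.0374, edgeR). In KO2 6 of the 69 rose and 3 fell by edgeR, with a median of 0.10, against 2.15% and 2.47% of all tested genes (18 higher and 8 lower unadjusted, 5 and 3 by DESeq2, which did not call SYTL1). APOBEC3C, a cytidine deaminase, rose 2.62-fold from 117 and 101 CPM to 301 and 272 CPM, while the receptor kinase gene EPHA2 fell 1.70-fold and the mTORC1 brake DDIT4 1.86-fold. ATF3, a stress-induced transcription factor, rose 1.73-fold in KO2 (adjusted p = 0.0472, edgeR). Its log2 fold change of 0.86 ± 0.20 in KO1 missed the threshold in edgeR (adjusted p = 0.0807) and passed in DESeq2. The other genes called in KO2 were FUCA1, NADSYN1, CES2 and SYTL1 (higher) and SAC3D1 (lower). Of 22 tested cell cycle genes that p53 represses through p21 and the DREAM complex, 0 rose and 0 fell in KO1 and KO2 by edgeR and DESeq2 (unadjusted: 0 and 0 in KO1, 0 higher and 6 lower in KO2). Among all tested genes 9.64% were higher and 9.76% lower in KO2 at an unadjusted p under 0.05. The cell cycle genes' median log2 fold changes were −0.04 in KO1 and −0.24 in KO2. In KO2 the median ratio was −0.0045 in HCT and −0.46 in HCT116 libraries. The sets pointed opposite ways for 11 of the 22, and for 5131 of all 12678 tested genes.

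Of the 35 members, the authors' deposited tables gave none an adjusted p under 0.05 in KO1 or KO2, where 0.0386% and 0.191% of listed genes had one. An unadjusted p under 0.05 was listed for 1 member in KO1, PLK2 (log2 fold change 1.21, p = 0.0146), and for 0 in KO2, against 0.624% and 1.62% of genes in the authors' deposited tables. The authors' deposited table gave CDKN1A in KO1 a log2 fold change of 0.93.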

How the data were processed

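Read counts per gene symbol were deposited by the authors for each library, per the file headers, and for each guide a log2 fold change, p-value and adjusted p-value from the authors' own comparison with WT. Tools named in the submitters' processing notes are STAR, DESeq2 and HTSeq 0.6.0, with hg18 as build and no roles. Another 40 columns of per-sample values (FPKM, values without a unit and the filtered lists) were not used. WT counts are identical in both tables, which were joined on the 15284 shared symbols. The 264 genes with a row in the KO1 table alone, and 429 in the KO2 table alone, had 0 reads in WT and were left out.

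Counts were tested with edgeR 4.0.16 (R 4.3.3, limma 3.58.1): TMM scaling, filterByExpr (by group, minimum count 10), then glmQLFit and glmQLFTest with group and prefix as terms over the 6 libraries (2 residual degrees of freedom), and Benjamini-Hochberg adjustment over 12678 genes at 0.05. Each SE was derived from the log2 fold change and its F statistic. Levels per kilobase divide CPM by the union of GENCODE v29 exons of a gene. CPM use TMM-scaled library sizes, and ratios within a prefix use log2 CPM with a prior count of 2. Libraries sharing a prefix deviated together: across genes, their differences from group means correlated at 0.867 (WT and KO1), 0.815 (WT and KO2) and 0.783 (KO1 and KO2), and this pairing comes from the column names. The 2 libraries of a group differed by more than sampling noise (chi-square per degree of freedom 91.5 to 142). At these depths 3 counts correspond to 0.157 to 0.236 CPM. No label says if counting was stranded, which leaves overlapping genes uncertain.

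The members and lists, the block and the rule for named genes were chosen with earlier results of these data known. The rule gives full statistics for members called in any comparison between groups, the 10 smallest p in KO1 and the 6 smallest in KO2, and for each further list the called genes and up to 4 more. Alternatives were the fit without the block, RLE size factors, DESeq2 1.42.0, no filter, only the 2 groups compared, and each library left out. The edgeR script was tested on simulated counts.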

Additional observations from a re-analysis of the deposited data

Results flagged for a closer look

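KO2 differed from KO1, by the direct edgeR test at an adjusted p of 0.05, for 4 of 33 members, all lower in KO2. Among all tested genes 5.39% were lower and 4.24% higher. A guide cannot be told apart here from the line or culture that received it. The log2 fold changes of KO2 minus KO1 were −1.91 for PLK2, −0.90 for ASCC3, −0.84 for CDKN1A and −0.66 for POLH.

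The same test passed for further genes of the p53 lists. Of 69 tested further targets 8 were lower and 6 higher, and of 27 tested regulators 1 was lower and 1 higher. The shares of all tested genes were 5.39% lower and 4.24% higher. Lower in KO2 than in KO1 were DDIT4 (log2 fold change −1.29), EPHA2 (−1.24), PRKDC (−1.11), the growth factor gene TGFA (−1.09), the decoy receptor gene TNFRSF10D (−0.88), TMEM68 (−0.78), HSPA4L (−0.71), NOTCH1 (−0.50) and MICALL1 (−0.49). Higher in KO2 were APOBEC3C (0.97), the fucosidase gene FUCA1 (0.82), NADSYN1 (0.80), the antigen-presenting gene MR1 (0.75), ZNF219 (0.54), the BH3-only gene PMAIP1 (0.51) and TP53BP1 (0.44), which marks broken DNA. The cause of these differences was not tested.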

How the results depend on the processing

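Calls over all tested genes moved with these settings too, so each member count is given with the share of all genes called in the same direction. In the reported fit 2 members were higher in KO1 (0.678% of genes), 1 lower in KO2 (2.47%) and 4 lower in KO2 than in KO1 (5.39%). Without the block on the name prefix all 3 counts, and those over all genes, were 0. Without a filter on low counts 6 members were higher in KO1 (1.44% of genes), and in KO2 1 was higher (3.15%) and 2 lower (3.06%). With only the 2 groups compared in the fit, which leaves 1 fewer group to estimate the spread, 14 were higher in KO1 (4.25%), and in KO2 2 were higher (3.07%) and 2 lower (3.43%). With RLE size factors, and also with DESeq2, 2 were lower in KO2 (2.95% in both).

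Leaving out 1 library gave 1 to 16 members higher in KO1, 0 to 7 higher and 0 to 5 lower in KO2, and 0 to 1 higher and 2 to 15 lower in KO2 against KO1. In KO1 the counts of 16 and 13 came without the HCT (4.48% of genes higher) or HCT116 library of KO2 (3.90%), and without the HCT library of WT it was 5 (1.27%). In KO2 the 7 higher came without the HCT library of KO2 (6.62%) and the 5 lower without its HCT116 library (9.26%). Between the guides the 15 lower came without the HCT116 library of KO2 (12.8%) and the 2 lower without the HCT library of KO1 (1.84%). A group left with 1 library borrows its spread from the other groups. The members' median ran from 0.19 to 0.55 in KO1, from −0.11 to 0.20 in KO2 and from −0.39 to −0.15 between the guides. In KO2, CDKN1A ran from −0.22 (HCT116 library of WT left out) to 0.39 and was −0.21 with the HCT116 library of KO2 left out. POLH ran from −0.13 to 0.10 (HCT library of WT left out) and was 0.0021 with the HCT116 library of KO2 left out. The cause was not tested. Depth limits TIGAR, ACER2, TNFRSF10C and the 2 members not tested.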
